A study of Mus musculus with 10 samples.

Results

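The genes described here encode the machinery that copies DNA and repairs it: 86 of the 10141 genes in the deposited table, of which 50 belong to replication and 36 to repair. They were chosen by name, from the symbol stems of the replication complexes (Mcm, Orc, Gins, Rfc, Pola, Pold, Pole, Prim, Rpa, Rrm) and repair families (Fanc, Rad5, Xrcc, Msh, Ercc) together with Pcna, Tk1, Cdc6, Cdc45, Cdt1, Fen1, Lig1, Brca1, Brca2 and Parp1. The rule uses symbols and no measured value, but it was set with earlier results of these data known. It also reaches only genes with an entry, which had been selected for a difference between the groups. Poldip2 and Primpol among the replication genes, and Ercc6l and Rad54l2 among the repair genes, matched by spelling only, and are counted as such.

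GFP+ leukaemia cells were set against CD11b+ myeloid cells without GFP, both sorted from marrow, by RNA sequencing of 5 libraries in each group. The leukaemia cells carried MLL-AF9, an oncogenic fusion of MLL to AF9 found in acute myeloid leukaemia, together with a GFP reporter. CD45.1 recipients had received them by tail vein, and marrow was taken once GFP had reached 2% in peripheral blood, so the myeloid cells too came from leukaemic mice. The labels give both groups the genotype MLL-AF9/GFP and the cell type of leukaemia cells, so the groups follow the sample titles. The protocol describes both sorts as flow cytometry, while the design text gives a magnetic sort of CD45.2-negative CD11b+ cells for the myeloid group. The sources used here give neither the age of the mice, nor whether libraries came from separate mice, nor whether the injected cells were 1 clone. There was no group of normal immature marrow cells, so a difference due to leukaemia and one due to stage of maturation cannot be told apart.

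Values are given as normalised reads, the reads of a gene divided by the size factor of its library, as recovered from the deposited log2 values. The table held 24099551 to 30879571 reads in the leukaemia libraries and 24712749 to 32247804 in the myeloid libraries, which is not the sequencing depth. Summed over 11 mature neutrophil markers, the leukaemia libraries had 53688 to 58017 normalised reads and the myeloid libraries 2213690 to 3553610. Summed over 6 of 7 promyelocyte markers with an entry, they had 244867 to 311478 and 25304 to 55767. Hoxa9, a target of the fusion, averaged 3215 ± 329 normalised reads in leukaemia cells and 16.0 ± 5.30 in myeloid cells (SD, n = 5 each), whereas Itgam, which encodes CD11b, averaged 12227 ± 1128 and 97794 ± 13873. Both therefore matched the sample titles.

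Replication starts at origins marked by the origin recognition complex, where CDC6 and CDT1 load the MCM helicase in G1 phase. CDC45 and the GINS complex turn the loaded helicase into the active one at the start of S phase, polymerase alpha with primase lays down primers, and polymerases epsilon and delta extend the leading and lagging strands on the PCNA clamp. Mismatch repair, excision repair, homologous recombination, end joining and the Fanconi anaemia pathway correct copying errors and mend base damage, strand breaks and crosslinks. Many of these genes are transcribed under E2F factors as cells leave G1, and in normal granulopoiesis division stops before the last stages of neutrophil maturation.

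Of the 50 replication genes, 46 were higher and 4 lower in leukaemia cells, with a median fold of 2.71 between the mean normalised reads of the groups. The 4 lower genes were Rrm2b, Primpol, Pold4 and Orc4. Of the 36 repair genes, 34 passed the filter on low values (a mean of over about 145 normalised reads), and of these 31 were higher and 3 lower, with a median fold of 1.99. Rad52, Rad51d and Xrcc4 were the 3 lower ones. Calls are limma tests at an adjusted p under 0.05 (Benjamini-Hochberg). The deposited genes had been selected for a difference between the groups, so the test separates little: 99.8% of the 8079 genes tested passed, 49.1% higher and 50.7% lower in leukaemia cells. Against that background the members are described by direction and size. Log2 differences below are leukaemia minus myeloid on the deposited variance-stabilised scale, which understates the change of genes with few reads. Their median was 1.09 over the replication genes and 0.61 over the repair genes, against -0.16 over all genes tested. A log2 difference of 1 or more in the higher direction was reached by 27 replication genes and 5 repair genes, against 9.52% of all genes tested. In the lower direction Rrm2b alone reached it among the members, against 18.1% of all genes tested. The 27 and 5 do not count all genes whose reads doubled, because of the compressed scale. Xrcc2, at 3.05-fold, had a log2 difference of 0.82 and Gins1, at 3.22-fold, 0.91.

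All 5 leukaemia libraries lay above all 5 myeloid libraries for 44 replication genes and 31 repair genes, against 42.4% of all genes tested. For 3 replication genes and 2 repair genes all leukaemia libraries lay below, against 44.3% of all genes tested. The groups overlapped for Orc4, Rfc1, Rfc2 and Xrcc4, and lay apart in either direction for the other 80 of the 84 members tested, against 86.8% of all genes tested. Summed over the 50 replication genes, normalised reads averaged 195746 ± 9336 in leukaemia cells and 73342 ± 19177 in myeloid cells, which is 2.67-fold higher. Summed over the 36 repair genes they averaged 46437 ± 409 and 21962 ± 2519, which is 2.11-fold higher. In bulk RNA, fewer cells of a type and less RNA per cell cannot be told apart. Leaving out the spelling-only members, 45 replication genes were higher and 3 lower, and 29 repair genes were higher and 3 lower.

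**Figure D1:**
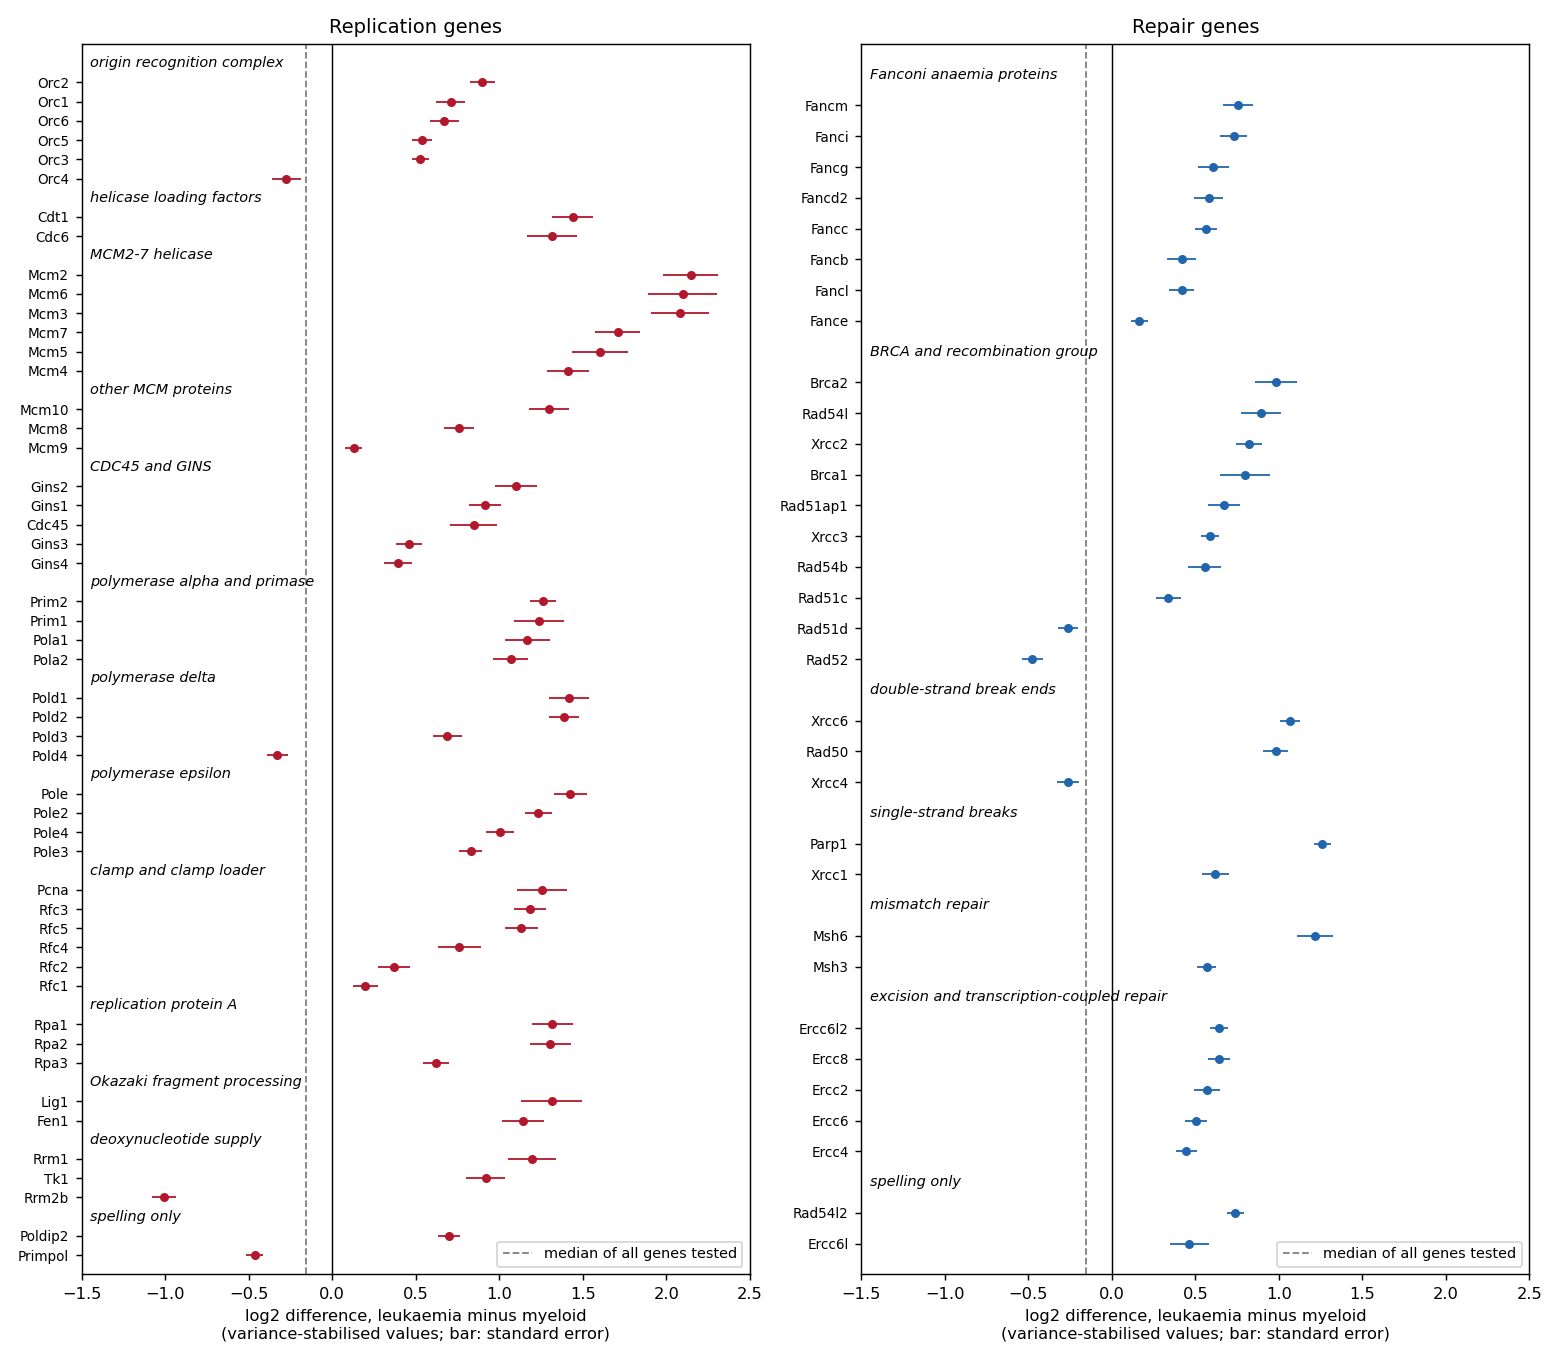
Log2 difference (leukaemia minus myeloid, deposited scale) of 82 of the 84 genes tested, grouped by role, with one point per gene, a bar for the standard error, a solid line at zero and a dashed line at the median of all genes tested. "Spelling only" marks genes that share a symbol stem without belonging to the complex. The MCM2-7 genes lie between 1.41 and 2.15, and 7 genes lie below zero.

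**Figure D2:**
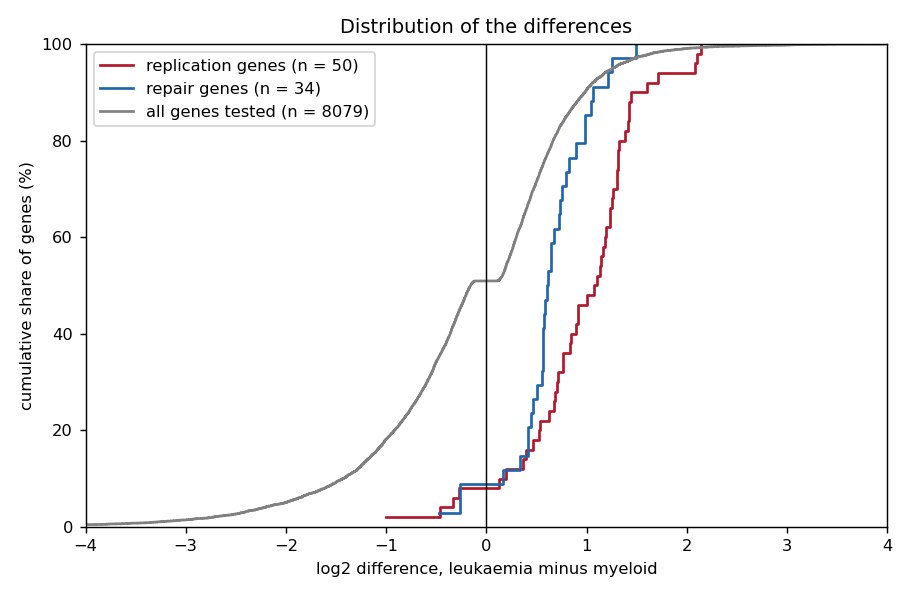
Cumulative share of genes (percent) against log2 difference for 50 replication genes, 34 repair genes and all 8079 genes tested. The flat stretch of the grey curve around zero shows that genes without a difference have no entry, and both member curves lie to the right of it over most of their range.

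The origin recognition complex marks the sites where replication can begin. Of its 6 genes, 5 were higher in leukaemia cells and Orc4 was lower, with a median log2 difference of 0.60. Orc1, the subunit whose protein cycles with the cell cycle in many cells, had 275, 333, 408, 369 and 402 normalised reads in the leukaemia libraries and 45.5, 160, 74.5, 115 and 101 in the myeloid libraries. It had the lowest level per kilobase of exon of the 6 in both groups, was 3.61-fold higher, and its log2 difference was 0.71 ± 0.087 (SE, limma adjusted p = 4.19e-06). Orc6 was nearly level among leukaemia libraries, at 1110, 1122, 1096, 1124 and 1146 normalised reads, against 402, 742, 447, 652 and 489 in the myeloid libraries. Orc4 had 1165, 920, 1094, 932 and 948 normalised reads in leukaemia libraries and 1141, 1346, 1729, 1149 and 1296 in myeloid libraries. These groups overlapped through leukaemia replicate 1 alone, and the log2 difference was -0.27 ± 0.085 (SE, limma adjusted p = 0.0075). Its call was lost with a trimmed-mean scaling of the recovered reads (adjusted p = 0.0683), and scaled to the table total it was 0.26 in the other direction. Orc2, Orc3 and Orc5 were 1.63-fold to 2.55-fold higher without overlap.

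Cdc6 and Cdt1 encode the factors that bring the helicase to the origin complex. Cdc6 had 2394, 2486, 2306, 2558 and 2502 normalised reads in leukaemia libraries, against 350, 1139, 614, 997 and 573 in myeloid libraries. Cdt1 had 3386, 4378, 3551, 4054 and 3988 in leukaemia libraries, against 880, 1674, 827, 1304 and 972 in myeloid libraries. Neither overlapped between groups, and relative to the group mean the spread was wider among myeloid libraries in both. They were 3.33-fold and 3.42-fold higher, with log2 differences of 1.32 ± 0.15 and 1.44 ± 0.13 (SE, limma adjusted p = 2.44e-06 and 1.49e-07).

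The 6 genes of the MCM2-7 helicase, the ring that unwinds the template, had the highest median log2 difference of any role with 3 or more members, 1.90, and all 6 passed a difference of 1. Mcm2 had 10268, 11724, 10165, 11297 and 11126 normalised reads in leukaemia libraries, against 1398, 3541, 1702, 2474 and 1629 in myeloid libraries. It was 5.08-fold higher, with a log2 difference of 2.15 ± 0.17 (SE, limma adjusted p = 4.78e-08), the largest of all members. Mcm6 had 17228, 18534, 16778, 19237 and 18044 normalised reads in leukaemia libraries, against 2540, 6599, 2772, 5442 and 2863 in myeloid libraries. Its highest myeloid library held 2.60 times the reads of the lowest, while the leukaemia libraries differed by at most 1.15 times. Mcm6 was 4.44-fold higher (log2 difference 2.10 ± 0.21 SE, limma adjusted p = 5.23e-07) and Mcm3 4.65-fold higher (2.08 ± 0.17 SE, limma adjusted p = 8.96e-08). Mcm4, Mcm5 and Mcm7 were 2.94-fold, 3.19-fold and 3.53-fold higher. Together the 6 genes averaged 76101 ± 4193 normalised reads in leukaemia cells and 19500 ± 7074 in myeloid cells. The other MCM genes were less even. Mcm10, a factor for helicase activation, was 3.20-fold higher and Mcm8, which acts with MCM9 in recombination, 3.11-fold higher. Mcm9 had 855, 729, 818, 712 and 725 normalised reads in leukaemia libraries, against 633, 663, 705, 708 and 613 in myeloid libraries. The groups lay next to each other with little gap, and its log2 difference of 0.13 ± 0.053 (SE, limma adjusted p = 0.0309) lost its call without leukaemia replicate 1 or 3 and without myeloid replicate 1 or 5 (adjusted p = 0.0593 to 0.0801). The Mcm9 difference was 0.05 under quantile normalisation (adjusted p = 0.4145), and it lost its call when all annotated genes were counted as tests (adjusted p = 0.212). Of the exon length of Mcm9, 12.8% overlaps Asf1a on the opposite strand.

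**Figure D3:**
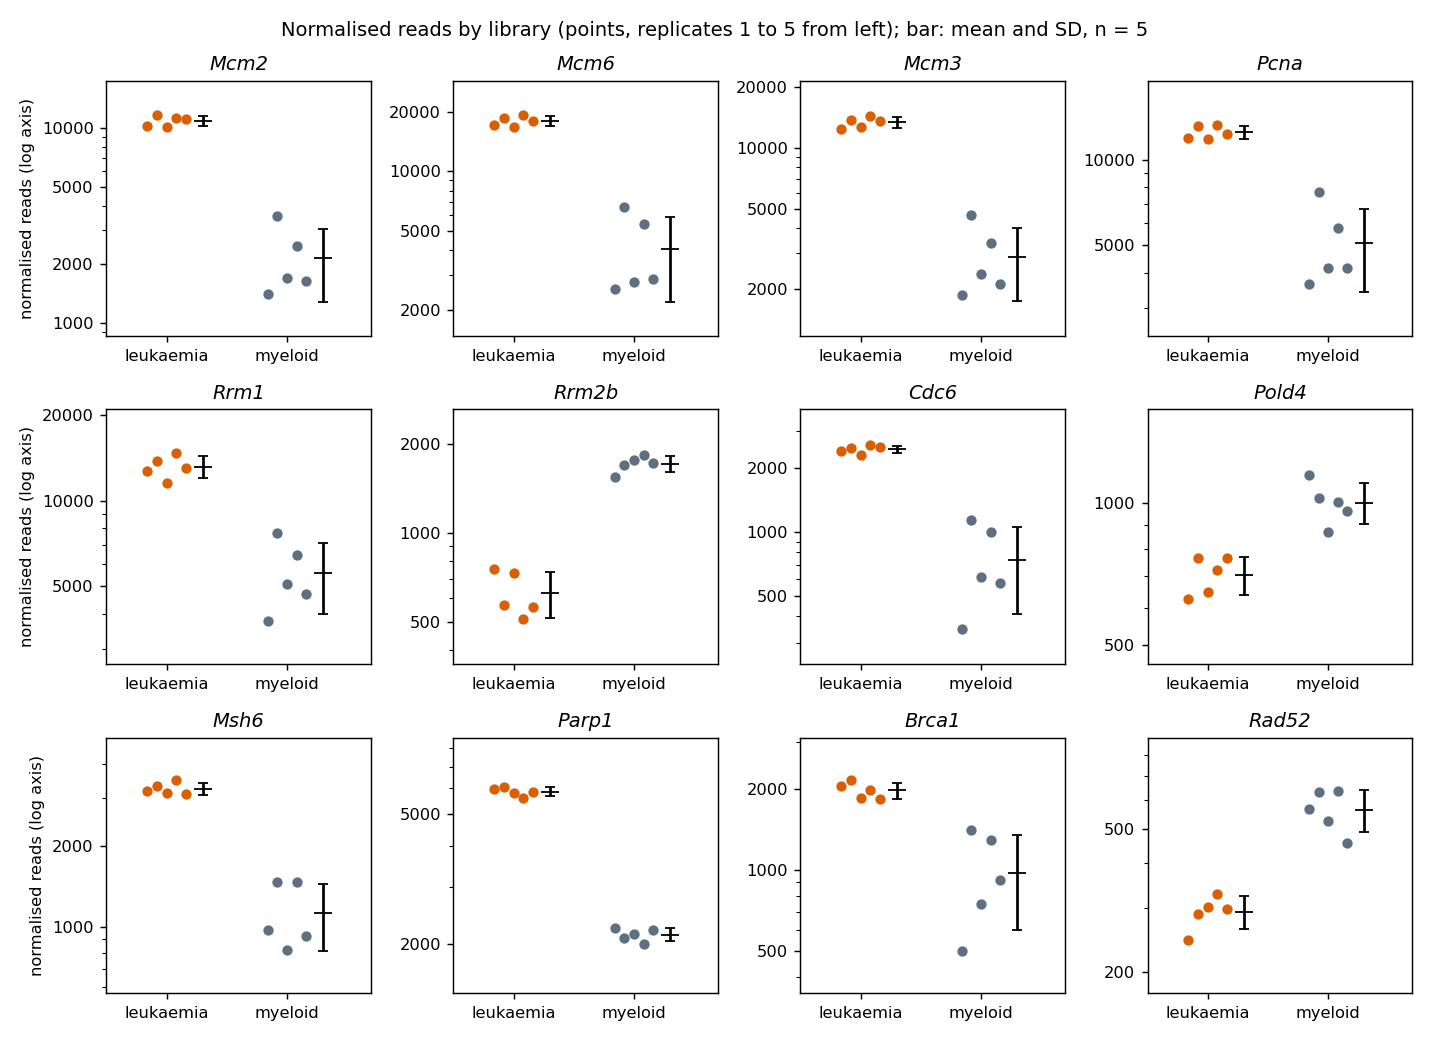
Normalised reads on a log axis in each of the 5 leukaemia and 5 myeloid libraries for 12 members, with one point per library and a bar for the mean and SD (n = 5). The leukaemia points of Mcm2 run from 10165 to 11724 and its myeloid points from 1398 to 3541, whereas Rrm2b lies at 509 to 755 in leukaemia and 1553 to 1847 in myeloid libraries.

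The promoters of these genes are shown because E2F binding there is a known feature of the family. RefSeq windows from 250 bases before to 50 bases after a gene's start (build GRCm38.p6) were matched for 42 of the 50 replication genes. They were searched on both strands for the E2F words TTTCCCGC, TTTGGCGC, TTTCGCGC and TTTGCCGC, which can overlap one another, since TTTGGCGC followed by GAAA holds TTTCGCGC on the other strand. A word stood in the window of 17 replication genes, or 40.5% of those with a window, against 4.88% of the genes tested and 2.61% of all 27025 genes in the table of windows. In 10 of the 17 a whole word lay upstream of the start, and in the others the words lay only after it. The share with an upstream word was not counted for other genes. The CCAAT word stood in 61.9% of the replication windows, against 43.1% of the genes tested and 41.1% of all genes, and the CACGTG word in 16.7%, against 12.7% and 8.09%. Only 27 of the 36 repair genes had a window, 75.0%, under the 80% of genes required here for a share, so no share is given for them. The 100-base stretches below are the promoters of a pair of MCM genes, the loading factor Cdc6 and the polymerase gene Pola1, and those of the repair genes Msh3 and Brca2. Capitals mark the E2F words, and each is written 5′ to 3′ on the strand of its gene.
Mcm6, chr1:128359731-128359830, minus strand: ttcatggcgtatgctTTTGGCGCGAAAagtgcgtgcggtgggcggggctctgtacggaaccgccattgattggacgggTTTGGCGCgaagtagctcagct
Mcm5, chr8:75109312-75109411, plus strand: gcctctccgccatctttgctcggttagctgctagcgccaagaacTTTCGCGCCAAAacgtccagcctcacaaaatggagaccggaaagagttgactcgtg
Msh3, chr13:92355150-92355249, minus strand: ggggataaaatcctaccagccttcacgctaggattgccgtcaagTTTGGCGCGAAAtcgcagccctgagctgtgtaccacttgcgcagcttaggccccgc
Cdc6, chr11:98907967-98908066, plus strand: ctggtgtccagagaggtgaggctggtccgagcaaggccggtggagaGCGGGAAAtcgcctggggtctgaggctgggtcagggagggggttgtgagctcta
Pola1, chrX:93632240-93632339, minus strand: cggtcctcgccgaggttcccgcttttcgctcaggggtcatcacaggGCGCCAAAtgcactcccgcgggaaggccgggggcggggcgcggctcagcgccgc
Brca2, chr5:150522407-150522506, plus strand: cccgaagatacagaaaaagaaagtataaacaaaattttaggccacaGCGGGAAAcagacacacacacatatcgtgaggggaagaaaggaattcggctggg
Mcm6, Mcm5 and Msh3 share the run TTTGGCGCGAAA, which reads TTTCGCGCCAAA on the other strand and is the form seen in the Mcm5 stretch. Counting the base before the start as -1, the run begins at -110 in Mcm6, -153 in Mcm5 and -202 in Msh3. It was noticed after the sequences had been seen, and it stands in the windows of 4 genes of 27025, the fourth being Mycn, which had no fit here. Among the 3 members the log2 differences were 2.10 for Mcm6, 1.60 for Mcm5 and 0.57 for Msh3. Replication genes with a word had a median log2 difference of 1.23 (17 genes, 0.46 to 2.10) and those whose window held none of the words had 0.90 (25 genes, -0.46 to 2.15), with wide overlap. Mcm2, the member with the largest difference, Pcna and Rrm1 were among those without one of these words. A match is a sequence description, and binding was not measured.

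CDC45 and GINS join the loaded ring to form the active helicase. All 5 genes were higher without overlap, with a median log2 difference of 0.85, less than that of the ring itself, a difference that was not tested. Cdc45 had 3015, 3550, 2920, 3462 and 3284 normalised reads in leukaemia libraries, against 1078, 2255, 1353, 2148 and 1280 in myeloid libraries. Its 2 highest myeloid libraries were replicates 2 and 4, and the fold was 2.00. Gins1 was 3.22-fold and Gins2 2.94-fold higher, whereas Gins4, at 1.49-fold, had the smallest fold of the 5. Of the exon length of Gins2, 70.7% overlaps Gse1, so its reads are uncertain where counting took no strand.

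Polymerase alpha and primase make the primers of each new strand, and their 4 genes were 2.69-fold to 3.52-fold higher, all past a log2 difference of 1. Prim1, the catalytic primase subunit, had 2265, 2310, 2283, 2355 and 2290 normalised reads in leukaemia libraries, against 363, 1243, 593, 881 and 622 in myeloid libraries. The leukaemia libraries differed by at most 1.04 times and the myeloid libraries by 3.43 times. Prim2 was 3.52-fold higher (log2 difference 1.26 ± 0.079 SE, limma adjusted p = 5.92e-09). Polymerase epsilon, the leading-strand enzyme, had 4 genes at 2.34-fold to 4.16-fold higher. Pole2 had 1188, 1247, 1254, 1431 and 1431 normalised reads in leukaemia libraries, against 220, 448, 299, 302 and 304 in myeloid libraries. Its groups lay far apart, at a log2 difference of 1.23 ± 0.079 (SE, limma adjusted p = 7.71e-09).

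Polymerase delta, which copies the lagging strand, did not move as one. Pold1, its catalytic subunit, was 3.06-fold higher, Pold2 4.29-fold and Pold3 1.82-fold, while Pold4, the smallest subunit, was lower. Pold4 had 626, 765, 649, 723 and 764 normalised reads in leukaemia libraries, against 1150, 1027, 871, 1004 and 965 in myeloid libraries. Every leukaemia library was below every myeloid library, and the log2 difference was -0.33 ± 0.061 (SE, limma adjusted p = 0.000198). Scaled to the table total, the Pold4 difference was 0.13 in the other direction and did not pass (adjusted p = 0.245).

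Compared per kilobase of exon, in normalised reads, the subunits of a complex were closer to one another in leukaemia cells for some complexes and not for others. The replication protein A genes, which encode the single-strand binding trimer, had 1269, 1262 and 1291 normalised reads per kb for Rpa1, Rpa2 and Rpa3 in leukaemia cells, against 455, 365 and 617 in myeloid cells. Among the 5 clamp loader genes the levels per kb lay between 820 (Rfc4) and 1208 (Rfc3) in leukaemia cells, against 322 (Rfc5) and 720 (Rfc1) at the ends of the range in myeloid cells. The MCM2-7 genes lay between 2137 (Mcm4) and 4417 (Mcm3) per kb in leukaemia cells, against 637 (Mcm2) and 1223 (Mcm5) in myeloid cells. For polymerase delta the range per kb was 606 (Pold4) to 1835 (Pold1) in leukaemia cells and 265 (Pold2) to 862 (Pold4) in myeloid cells. Pold4 thus had the lowest level per kb of its complex in leukaemia cells and the highest in myeloid cells. The lengths are those of merged GENCODE vM21 exons, and levels between genes are approximate, because the annotation used for counting is not given in the sources used here.

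**Figure D4:**
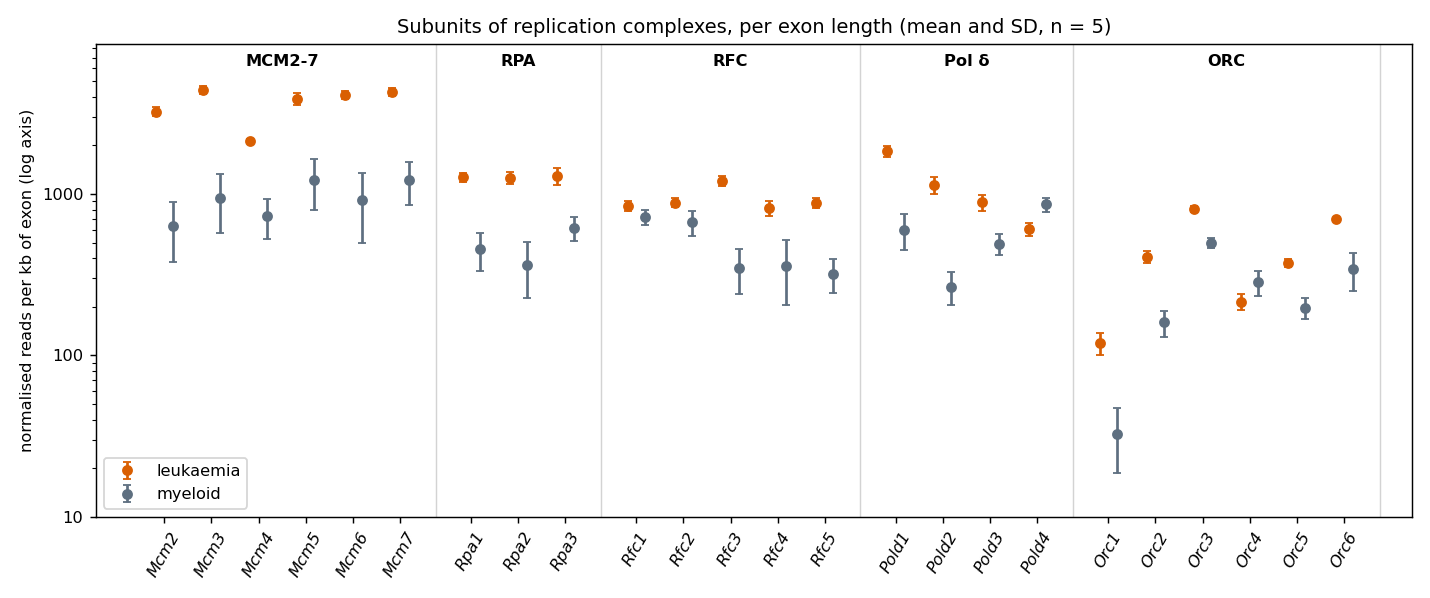
Normalised reads per kilobase of exon (log axis, mean and SD, n = 5) for the subunits of 5 replication complexes, leukaemia beside myeloid. The leukaemia means of Rpa1, Rpa2 and Rpa3 are 1269, 1262 and 1291, and Pold4 and Orc4 are the genes with a lower mean in leukaemia cells.

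The clamp PCNA, which tethers polymerases to DNA, had 11930, 13104, 11877, 13268 and 12302 normalised reads in leukaemia libraries, against 3645, 7674, 4166, 5750 and 4144 in myeloid libraries. The groups were well apart, and Pcna was 2.46-fold higher (log2 difference 1.26 ± 0.15 SE, limma adjusted p = 3.75e-06). The loader genes Rfc3, Rfc4 and Rfc5 were 2.27-fold to 3.48-fold higher. Rfc1, the large loader subunit, had 4407, 3864, 4250, 3931 and 3713 normalised reads in leukaemia libraries, against 2980, 3829, 3191, 3800 and 3462 in myeloid libraries. The groups overlapped, and at 1.17-fold (limma adjusted p = 0.0189) it lost its call when all annotated genes were counted as tests (adjusted p = 0.13). Rfc2 was 1.33-fold higher with overlapping groups, and 19.1% of its exon length overlaps Lat2. Rpa1, Rpa2 and Rpa3 were 2.79-fold, 3.46-fold and 2.09-fold higher. Fen1, the flap nuclease, and Lig1, the ligase that seals lagging-strand fragments, were 2.58-fold and 2.67-fold higher, and 78.8% of the exon length of Fen1 overlaps the annotated gene Gm10143 on the opposite strand.

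Ribonucleotide reductase makes deoxynucleotides, and its small subunit exists in an S-phase form, Rrm2, not analysed here, and a p53-inducible form, Rrm2b. Rrm1, the large subunit, had 12716, 13751, 11542, 14634 and 13014 normalised reads in leukaemia libraries, against 3792, 7706, 5075, 6455 and 4712 in myeloid libraries, and was 2.37-fold higher. Rrm2b had 755, 569, 732, 509 and 559 normalised reads in leukaemia libraries, against 1553, 1697, 1774, 1847 and 1726 in myeloid libraries. All leukaemia libraries were far below the myeloid ones, with a log2 difference of -1.01 ± 0.072 (SE, limma adjusted p = 2.12e-08), the largest drop of any member, and it stayed lower scaled to the table total (-0.83). Tk1, the salvage kinase for thymidine, was higher too, averaging 2776 ± 120 normalised reads in leukaemia cells and 1263 ± 392 in myeloid cells. Primpol, a repriming enzyme of damaged templates that matched by spelling only, was lower (log2 difference -0.46 ± 0.051 SE, limma adjusted p = 1.54e-06), with no call when scaled to the table total (-0.07, adjusted p = 0.456), and 24.1% of its exon length overlaps Cenpu.

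Mismatch repair corrects copying errors left by the polymerases. Msh6, whose protein takes part in the recognition of single mismatches, had 3192, 3312, 3123, 3483 and 3088 normalised reads in leukaemia libraries, against 971, 1461, 822, 1466 and 923 in myeloid libraries. The groups lay far apart, and it was 2.87-fold higher (log2 difference 1.22 ± 0.11 SE, limma adjusted p = 1.95e-07). Msh3, which acts on longer loops, was 1.87-fold higher, with 961 to 1227 normalised reads in leukaemia libraries and 518 to 592 in myeloid libraries.

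Parp1, a sensor of strand breaks, had 5973, 6079, 5818, 5596 and 5847 normalised reads in leukaemia libraries, against 2239, 2094, 2154, 1997 and 2211 in myeloid libraries. It varied little within either group and was 2.74-fold higher (log2 difference 1.26 ± 0.050 SE, limma adjusted p = 1.06e-10). Xrcc1, the scaffold of single-strand break repair, was 1.84-fold higher. Xrcc6, which encodes the Ku70 end-binding protein, had 1535, 1710, 1752, 1916 and 1888 normalised reads in leukaemia libraries, against 558, 680, 607, 545 and 580 in myeloid libraries. It was 2.96-fold higher without overlap, and Rad50, part of the end-resecting MRN complex, was 2.44-fold higher. Xrcc4, the partner of ligase 4 in end joining, had 221, 229, 290, 314 and 266 normalised reads in leukaemia libraries, against 304, 430, 415, 452 and 355 in myeloid libraries. These overlapped, the log2 difference was -0.26 ± 0.067 (SE, limma adjusted p = 0.00231), and scaled to the table total it was 0.07 in the other direction (adjusted p = 0.652).

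In the BRCA and recombination group, which carries out homologous recombination, 9 of the 11 genes tested were higher and 2 lower, with a median log2 difference of 0.67. Brca1 had 2055, 2156, 1849, 1987 and 1843 normalised reads in leukaemia libraries, against 503, 1412, 751, 1291 and 919 in myeloid libraries, and was 2.03-fold higher (log2 difference 0.80 ± 0.15 SE, limma adjusted p = 0.000207). Brca2, the partner of Brca1 in recombination, was 2.70-fold higher, and Rad54l, a motor protein of strand invasion, was 2.44-fold higher. Rad52, an annealing factor, ran the other way, with 244, 290, 303, 329 and 299 normalised reads in leukaemia libraries, against 567, 630, 526, 636 and 457 in myeloid libraries. Its groups did not overlap, with a log2 difference of -0.48 ± 0.063 (SE, limma adjusted p = 8.34e-06), and it stayed lower scaled to the table total (-0.31). The remaining recombination genes described here were divided. Xrcc2 was 3.05-fold, Xrcc3 2.08-fold and Rad51c 1.82-fold higher, while Rad51d was lower (log2 difference -0.26 ± 0.061 SE, limma adjusted p = 0.00114). Scaled to the table total, Rad51d was 0.21 in the other direction, and Rad51c lost its call under quantile normalisation (adjusted p = 0.0667). Rad51b did not pass the filter, with 177 ± 39.8 normalised reads in leukaemia cells and 47.9 ± 19.2 in myeloid cells, and was not tested. Of the exon length of Rad54b, 39.1% overlaps Fsbp on the same strand, so their reads may be shared.

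Fanconi anaemia proteins act on crosslinks between strands. All 8 genes tested were higher without overlap, with a median log2 difference of 0.57 and folds of 1.28 (Fance) to 2.40 (Fancc). Fanci, whose protein is ubiquitinated with FANCD2, was 2.12-fold and Fancd2 1.75-fold higher. The Fance difference, 0.16 ± 0.049 (SE, limma adjusted p = 0.00632), was -0.01 under quantile normalisation. Fancf was not tested, at 175 ± 42.3 normalised reads in leukaemia cells and 85.6 ± 38.7 in myeloid cells, with overlapping groups. The 5 genes of excision and transcription-coupled repair were higher without overlap, at folds of 1.62 to 2.94. Ercc8, of the transcription-coupled branch, had the largest fold of these, with 379, 412, 424, 387 and 365 normalised reads in leukaemia libraries, against 121, 137, 192, 88.3 and 132 in myeloid libraries.

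The myeloid libraries were not alike in the replication genes. The median ratio of the highest to the lowest library was 1.20 among leukaemia libraries and 1.89 among myeloid libraries for replication genes. For repair genes it was 1.24 and 1.68, and for all genes tested 1.25 and 1.38. Myeloid replicate 2 was the highest myeloid library for 41 of 50 replication genes, or 82.0%, against 31.5% of all genes tested, and for 12 of 34 repair genes, or 35.3%. Replicates 2 and 4 both lay above replicates 1, 3 and 5 for 38 replication genes, or 76.0%, for 18 repair genes, or 52.9%, and for 32.1% of all genes tested. This held for all 6 MCM2-7 genes and for 10 of 11 genes of the BRCA and recombination group, but for none of the 5 excision repair genes.

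Marker lists also set myeloid replicates 2 and 4 apart. In myeloid replicates 1 to 5, the 10 dendritic and MHC class II markers with an entry (of 11) summed to 62315, 6788, 43876, 6698 and 40130 normalised reads, against 2246 to 3758 in leukaemia libraries. The 6 promyelocyte markers summed to 27220, 55767, 25304, 36283 and 27393 in the same order, and the 11 mature neutrophil markers to 2213690, 3553610, 2385130, 2952970 and 2416050. Monocyte markers (6 of 7) summed to 28332 to 47658 in leukaemia and 76327 to 127027 in myeloid libraries, and macrophage markers (6 of 11) to 5550 to 7434 and 15985 to 32372. Myeloid replicates 2 and 4 had the 2 lowest myeloid sums for monocyte markers (76327 and 80749) and for macrophage markers (15985 and 18444). Of the 4 macrophage markers tested, 1 was higher and 2 were lower in leukaemia cells, and 1 was not called. B cell markers (8 of 11) summed to 506 to 650 and 593 to 2669, with myeloid replicates 2 and 4 again lowest of the myeloid libraries (638 and 593). The only B cell marker tested was higher in leukaemia cells (log2 difference 0.31). T and NK markers (9 of 10) summed to 2926 to 5879 in leukaemia and 1769 to 4365 in myeloid libraries, and erythroid markers (6 of 13) to 2599 to 3560 and 1241 to 1585. Nkg7, a granule gene, made up most of the T and NK sum in leukaemia libraries (2863 to 5866 normalised reads, against 696 to 1452 in myeloid libraries). The other 8 T and NK markers all had lower means in leukaemia cells, summing to 13.6 to 77.0 there and 1072 to 2914 in myeloid libraries, and Cd3g was at 0 in every leukaemia library. Tfrc, the transferrin receptor gene, likewise carried the erythroid sum (2468 to 3475 in leukaemia and 846.5 to 1538 in myeloid libraries), and of the other 5 erythroid markers 4 had lower means in leukaemia cells. No marker with an entry was at 0 in every library, and megakaryocyte markers had 1 entry of 6. The part of these cells in the differences was not tested. Without myeloid replicates 2 and 4 the median log2 difference of replication genes was 1.25, that of repair genes 0.68, and 46 and 31 genes were called higher.

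**Figure D5:**
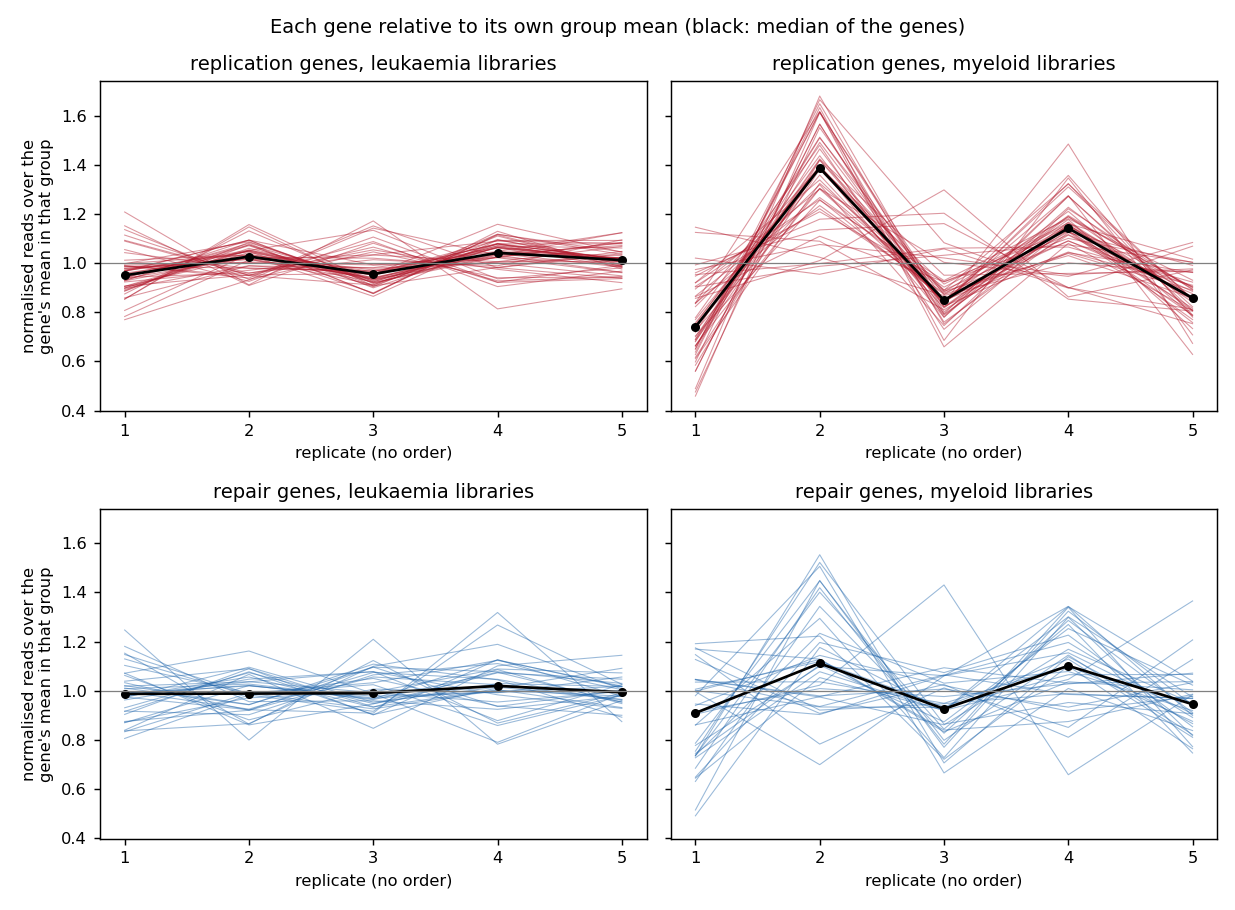
Normalised reads of each gene over its mean in that group, for replication genes (top) and repair genes (bottom), in leukaemia libraries (left) and myeloid libraries (right). Each thin line is a gene and the black line the median of the genes, and the replicates have no order. The median ratio of the highest to the lowest library of the replication genes is 1.20 in leukaemia and 1.89 in myeloid cells, and myeloid replicate 2 stands highest.

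Of 20 general proliferation markers, 9 had an entry, 4 of them higher and 5 lower in leukaemia cells, with a median log2 difference of -0.26. This split is near that of all genes tested, of which 49.1% were higher and 50.7% lower. The highest were Ccne2, a cyclin of S-phase entry (0.54), and Bub1, a spindle checkpoint kinase (0.30), and the lowest were Cenpa, the centromeric histone (-0.50), and Ccna2, a cyclin of S and G2 phase (-0.39). Summed, these 9 had 19809 to 21559 normalised reads in leukaemia libraries and 20247 to 28226 in myeloid libraries.

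By count of genes, neighbouring pathways that the naming rule leaves out were mostly higher too, apart from end joining. Of all genes tested, 49.1% were higher and 50.7% lower. The share of called genes that were higher was 67.4% when scaled to the table total. These lists were counted in the main fit only. Summed normalised reads were lower in every leukaemia library for nucleotide supply (57650 to 64959, against 69760 to 87239 in myeloid libraries). Samhd1 alone held most of the myeloid sum (39501 to 50590, against 5503 to 9336 in leukaemia libraries). Without it, the rest of that list summed higher in every leukaemia library. Sums of the whole list were also lower in every leukaemia library for base excision repair, translesion synthesis, end joining and the E2F, RB and MuvB regulators. Sums overlapped for damage checkpoint genes and were higher in every leukaemia library for the other lists below. Of 28 other replication genes, 26 were higher and 2 lower (median log2 difference 0.62), led by the fork protection gene Timeless (1.49) and the helicase gene Recql4 (1.43), with Rnaseh2c (-0.40) and Stn1 (-0.25) lowest. All 11 chromatin assembly and maintenance methylation genes were higher (median 1.05), Uhrf1 and Hells most (1.55 each). Nucleotide supply had 16 higher and 5 lower of 21 (median 1.01). Cad, the first enzyme of pyrimidine synthesis (2.15), and Impdh2, of guanine nucleotide synthesis (1.88), were highest, and Samhd1, which breaks down deoxynucleotides (-2.62), and Cmpk2, a mitochondrial nucleotide kinase (-1.66), were lowest. Samhd1 averaged 6950 ± 1845 normalised reads in leukaemia cells and 44658 ± 4612 in myeloid cells, the same direction as Rrm2b.

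Damage checkpoint genes had 14 higher and 7 lower of 21 tested (median log2 difference 0.53). Wee1, a mitotic entry kinase, and Trp53 were highest (1.42 and 1.37), while Gadd45a and Mdm2 were lowest (-2.50 and -1.18). Base excision repair had 10 higher and 4 lower of 14 (median 0.34), from Apex1, the abasic endonuclease (1.92), and Ung, the uracil glycosylase (1.68), with Parp3 (-0.87) among the lower ones. Other nucleotide excision repair genes had 14 higher and 4 lower of 18 (median 0.37), and all 6 other mismatch repair genes were higher (median 0.60). A list of other genes of homologous recombination and its regulation had 26 higher and 6 lower of 32 (median 0.52). Rif1, a regulator and not a recombination enzyme, was highest (1.10), and Wrn was lowest (-0.62). Translesion synthesis had 7 higher and 3 lower of 10 (median 0.63), from Poli (1.10) to Ube2b (-1.60). Other end joining genes had 3 higher and 6 lower of 9 (median -0.39), with Prkdc, the kinase that Ku recruits, highest (1.11) and the nuclease genes Dclre1b (-0.87) and Dclre1c (-0.68) lowest, beside the higher Xrcc6 and lower Xrcc4. The E2F, RB and MuvB regulators had 9 higher and 5 lower of 14 (median 0.18), with Mybl2 (1.25) and E2f6 (1.02) highest and E2f2 (-2.02) and Lin54 (-0.88) lowest.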

How the data were processed

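RNA of sorted GFP+ leukaemia cells and CD11b+ myeloid cells was sequenced, with 5 libraries a group. The authors deposited normalised variance-stabilised log2 values of 10141 genes. HISAT2 (2.0.4 and 2.2.1) and DESeq2 are named in the submitters' processing notes. Genome build, annotation, read counter and strand setting are not given in the sources used here.

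All libraries share a lowest value of 8.1823, taken as 0 reads. Inverting the transformation gave whole multiples of 1 read for 100% of low values in each library (tolerance 0.1 read, up to 300 reads), from which reads and size factors were recovered. This assumes a shared parametric form of the transformation.

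The deposited log2 values were fitted with limma 3.58.1 (R 4.3.3), leukaemia minus myeloid, with a trended prior, two-sided tests and Benjamini-Hochberg adjustment over 8079 genes whose mean lay over 1 unit above the lowest value. The script was tested on simulated data. The highest unadjusted p in the table was 0.243, so adjusted p-values describe genes already selected for a difference. The labels do not say that libraries came from separate mice, so p-values measure only the spread between these libraries, which may be technical.

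Any member could be named, and from the other lists the 2 genes at either end at most. Members and lists were chosen with earlier results of these data known, and Rad54l2 joined the spelling-only members after the files were seen. The rule also matches 13 annotated symbols without an entry, among them Rrm2, Ercc1, Fanca and Xrcc5, which are not analysed here. The alternatives were 3 further scalings with voom on recovered reads, quantile normalisation, 2 filters, adjustment over 55450 annotated genes, the replicate block and left-out libraries. Of the members, 35 share exon sequence with another annotated gene, 13 over at least 10% of exon length (GENCODE vM21), and their reads are uncertain without a known strand setting. A few genes that enter the counts are not reported here by name.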

Additional observations from a re-analysis of the deposited data

Results flagged for a closer look

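Among 172 groups of 5 libraries (86 genes, 2 groups each), 7 held 1 library far from the other 4 in normalised reads. Chance gives such a gap in about 1 group in 20. Leukaemia replicate 3 was the highest for Orc2, at 1673, with the others at 1364 to 1439. Leukaemia replicate 1 was the highest for Msh3, at 1227 against 961 to 1018 in the others, and the lowest for Rpa3, at 677 against 876 to 942. Rad51c had a high library in each group, leukaemia replicate 4 at 357 (others 237 to 264) and myeloid replicate 2 at 226 (others 112 to 141). Myeloid replicate 4 was the highest for Fancf, at 153 (others 53.0 to 77.0), and myeloid replicate 1 for Fance, at 315 (others 247 to 265).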

How the results depend on the processing

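Of 84 members tested, 75 kept their direction and call in each of the 19 alternatives that fitted them. The stricter filter fitted 67 members, and the others fitted all 84. Scaling mattered most. With voom on the recovered reads, a scale that does not compress genes with few reads, the median log2 difference was 1.61 (trimmed-mean factors), 1.49 (the authors' size factors) and 2.11 (table total) for replication genes, and 1.14, 1.02 and 1.65 for repair genes. Scaling to the table total moved the median of all genes to 0.43, from -0.21 with the authors' size factors, and the share of called genes that were higher to 67.4%, from 49.2%. Relative to the median of all genes, replication genes were 1.68 and repair genes 1.22 higher under it. Under table-total scaling 1 replication gene and 1 repair gene were lower, Pold4 (0.13), Orc4 (0.26), Rad51d (0.21) and Xrcc4 (0.066) changed sign, and Primpol was not called. Fance was -0.012 under quantile normalisation. The stricter filter fitted 23 repair genes, 1 of them lower, with a median of 0.73. Without myeloid replicates 2 and 4 the medians were 1.25 and 0.68. Leaving out 1 library at a time gave 45 to 46 replication genes higher, 4 lower and a median of 1.01 to 1.18, and 31 repair genes higher, 3 lower and a median of 0.59 to 0.65.

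With the replicate number as a block, 46 and 4 replication genes and 31 and 3 repair genes were higher and lower, with medians of 1.09 and 0.61. The column names give the libraries of both groups the same numbers, 1 to 5. Libraries with the same number correlated at -0.02 to 0.32 in their deviations from the group means, over 0.1 in 4 of 5 pairs. Of the 5 leukaemia libraries, 2 correlated best with their own number. These values do not decide whether the numbers pair the libraries, so the main fit used no block. Fancf and Rad51b had too few reads for the filter and were tested only without it.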
